A study of Mus musculus with 8 samples.

Results

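The acrosome is the secretory vesicle that caps the sperm head, and 9 genes for its proteins were followed across 8 testis arrays: Acr, Acrbp and Spam1 of the vesicle contents and membranes, Acrv1, Spaca1 and Spaca3, the zona pellucida-binding proteins Zpbp and Zpbp2, and the fusion protein Izumo1. They were taken by name from the array's gene symbols, and all 9, of 22009 different symbol entries, had at least 1 probe set (a set of short probes for 1 transcript), giving 13 of the 45101 probe sets. Testis RNA was taken at postnatal day 23 for 5 samples labelled wildtype (replicates 1, 2, 4, 6 and 7) and 3 samples labelled CTCFL mutant (replicates 3, 5 and 8), with 1 Affymetrix Mouse430_2 array each. CTCFL is a testis-specific paralog of CTCF that is present before meiosis, and the mutant allele lacks exons 1 to 8 of Ctcfl in every cell of the animal, on a C57/Bl6 background. The study's text calls the mutants homozygous and the control littermates heterozygous for this deletion. The labels call the controls wildtype, the name used here. Nothing in the labels tells whether any arrays share an animal or a litter, so p-values measure the spread between these samples.

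The acrosome forms from the Golgi apparatus of round spermatids, spreads over the nucleus as the spermatid elongates, and is released by exocytosis when the sperm meets the egg coat. Its contents open a path through the cumulus and the zona pellucida, and membrane proteins that the release exposes then bind and fuse with the egg. At day 23 the first wave of spermatogenesis in the mouse has reached the round spermatid, so the haploid cells are the newest part of the tissue.

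Levels are log2 values after background correction and quantile normalisation, and array medians lay between 6.40 and 6.45. One array of each genotype, wildtype replicate 7 and mutant replicate 8, departed from the other 6 across the series, so results are given for all 8 arrays, with this pair as a block of its own, and without it. Levels of Ctcfl were not analysed here, and the labels have no check from the targeted gene. Precision is limited by the number of arrays. In whole testis, fewer cells of a type and less RNA per cell cannot be told apart.

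Between the genotypes no acrosome gene differed detectably. With limma, 0 of the 13 acrosome probe sets passed an adjusted p of 0.05, where 0% of all probe sets did, and each adjusted p was 1.0. At an unadjusted p under 0.05 there were also 0 of 13, against 3.47% of all probe sets (1.7% lower in mutant), and the smallest unadjusted p was 0.144, for Zpbp2. The wildtype and mutant values overlapped for all 13 probe sets, whereas 2.7% of all probe sets had groups without overlap (1.31% lower in mutant). Taking 1 main probe set per gene, 5 genes had a lower and 4 a higher mean in mutant testis, where 48.5% of all probe sets were lower, with a median difference of -0.050 on the log2 scale against 0.0032 over all probe sets. This median has no stable sign: it was -0.50 without mutant replicate 8, 0.19 without mutant replicate 3, 0.10 without wildtype replicate 7, 0.015 without mutant replicate 5 and -0.20 with the pair as a block. The 5 with the lower mean were Acrv1, Izumo1, Spaca1, Spam1 and Spaca3, whose differences lay between -0.23 and -0.050 with standard errors of 0.32 to 0.54. The 4 with the higher mean were Acr, Acrbp, Zpbp and Zpbp2, whose differences lay between 0.019 and 0.10 with standard errors of 0.062 to 0.11. Every 95% interval included 0.

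**Figure D1:**
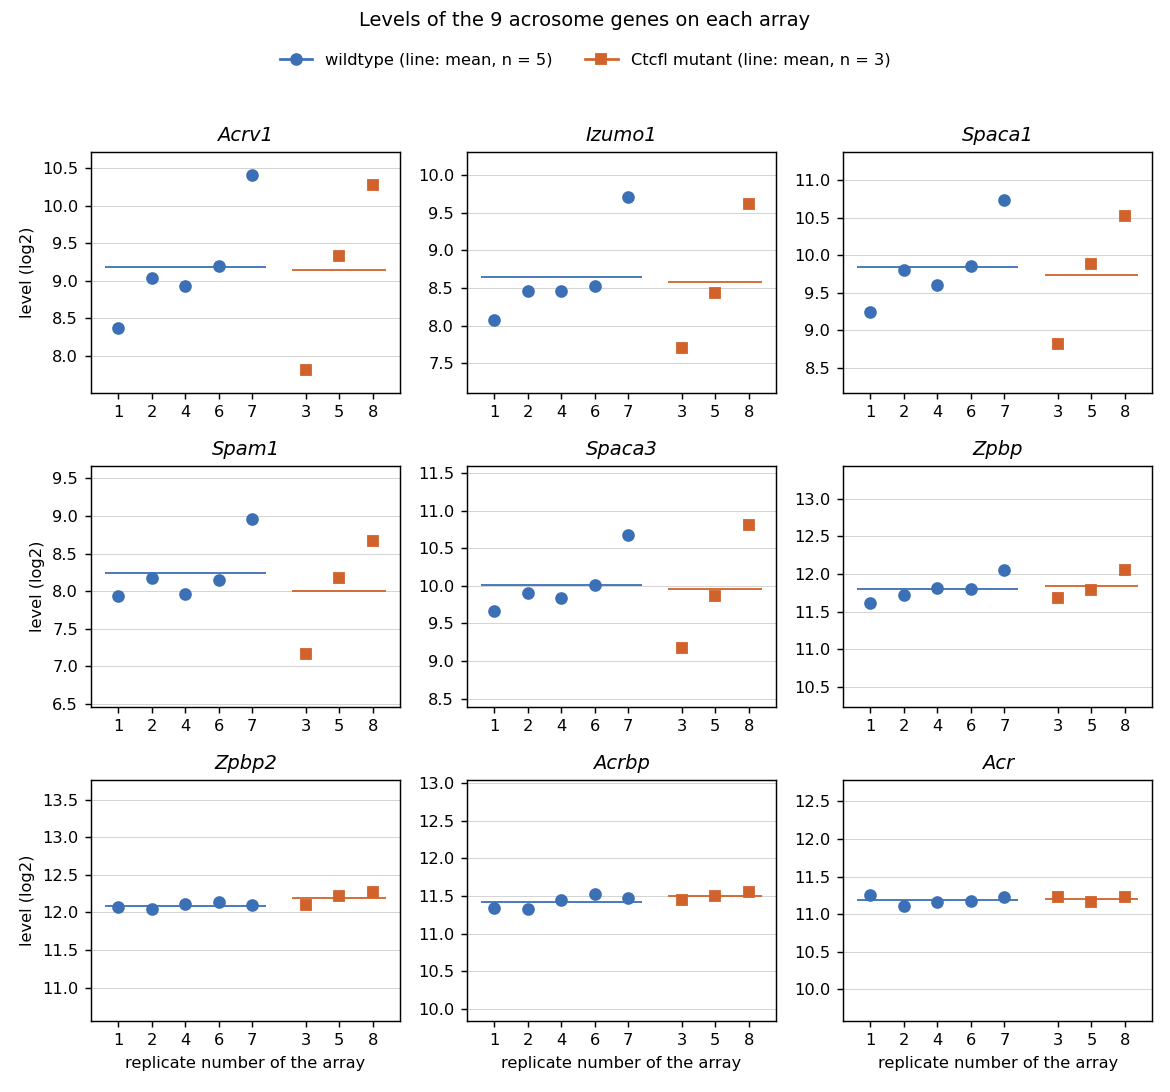
Log2 level of each acrosome gene (main probe set) on each array, with circles for wildtype, squares for Ctcfl mutant and lines for the group means. All panels span the same 3.2 log2 units, so that Acrv1, Izumo1, Spaca1, Spam1 and Spaca3 can be seen to vary widely, highest on wildtype replicate 7 and mutant replicate 8 and lowest on mutant replicate 3, while Acr, Acrbp and Zpbp2 stay nearly level.

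What set the genes apart was their spread over the arrays. Split after their values had been seen, Acrv1, Izumo1, Spaca1, Spam1 and Spaca3 ranged by 1.64 to 2.59 on the log2 scale between the lowest and the highest array, which is 3.12-fold to 6.02-fold. Acr, Acrbp, Zpbp and Zpbp2 ranged by 0.14 to 0.43. The median range over all probe sets was 0.38, and 3.49% of them ranged by more than 1, so the 5 wide genes lay between percentiles 99.03 and 99.8 of all ranges and Acr at percentile 2.11. The split went with signal: the 4 narrow genes had mean levels of 11 or more, where 0.914% of all probe sets ranged by over 1, and the 5 wide ones lay between 8 and 11, where 4.80% did. What part signal strength has in the split was not tested.

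The vesicle enzymes and their partner came first. Acr encodes acrosin, the serine protease stored in the acrosome as proacrosin. Its levels were 11.25, 11.11, 11.16, 11.17 and 11.23 on the wildtype arrays and 11.23, 11.16 and 11.22 on the mutant arrays. The pair that stood apart did not stand out for Acr, and its genotype difference was 0.019 (SE 0.062), with a 95% interval of -0.12 to 0.16 that leaves 0.920-fold to 1.12-fold. Acrbp encodes the proacrosin-binding protein, which holds the zymogen in the acrosome. Its levels were 11.34, 11.32, 11.45, 11.52 and 11.48 in wildtype and 11.44, 11.50 and 11.56 in mutant, a difference of 0.076 (SE 0.071). Its other probe set differed by 0.077 (SE 0.12) but ranged by 0.47 instead of 0.23, and was highest on wildtype replicate 7 and mutant replicate 8, at 10.41 and 10.42.

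Spam1 encodes PH-20, a hyaluronidase of the sperm surface and inner acrosomal membrane that opens the cumulus matrix. Its levels were 7.94, 8.17, 7.97, 8.15 and 8.96 in wildtype and 7.17, 8.18 and 8.67 in mutant testis. Mutant replicate 3 was the lowest of all arrays, 0.77 below the lowest wildtype array, and wildtype replicate 7 was the highest. The means were 8.24 ± 0.42 (SD, n = 5) and 8.01 ± 0.77 (SD, n = 3), a difference of -0.23 (SE 0.32) and the largest among the 9 genes, with an interval of -0.95 to 0.49.

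The zona-binding proteins are paralogs that line the acrosomal matrix and are known for acrosome compaction and sperm head shape. Zpbp had levels of 11.62, 11.72, 11.81, 11.80 and 12.05 in wildtype and 11.68, 11.79 and 12.05 in mutant. The highest values were those of wildtype replicate 7 and mutant replicate 8, which exceeded the other 6 arrays by at least 0.24, and the genotype difference was 0.040 (SE 0.11). Zpbp2 had levels of 12.07, 12.04, 12.11, 12.14 and 12.09 in wildtype and 12.09, 12.22 and 12.28 in mutant. Here wildtype replicate 7 lay in the middle of its group. Zpbp2 differed by 0.10 (SE 0.066, interval -0.042 to 0.25). Both paralogs have another probe set, with levels of 5.30 to 5.70 for Zpbp and 3.93 to 4.31 for Zpbp2, all below the array medians, and on these neither pattern was seen: that of Zpbp was lowest on wildtype replicate 7, and that of Zpbp2 had a difference of -0.034.

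Spaca1 is a membrane protein of the acrosome that is needed for the shaping of the sperm head, and sperm that lack it have abnormally round heads. Its levels were 9.24, 9.80, 9.61, 9.86 and 10.73 in wildtype and 8.81, 9.88 and 10.53 in mutant testis. The order of the arrays was as for Spam1 at both ends, with wildtype replicate 7 and mutant replicate 8 at least 0.65 above the rest and mutant replicate 3 at the bottom. The means of 9.85 ± 0.55 (SD, n = 5) and 9.74 ± 0.87 (SD, n = 3) differed by -0.11 (SE 0.39).

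Spaca3 is a lysozyme-like protein of the acrosome that has lost its enzyme activity. It measured 9.66, 9.90, 9.83, 10.01 and 10.67 in wildtype and 9.17, 9.87 and 10.81 in mutant, a difference of -0.065 (SE 0.33). Alone among the 5 wide genes it was highest on mutant replicate 8. Its other probe set, whose name marks possible cross-hybridisation, lay between 6.19 and 6.70 and did not follow this order, with its highest value on wildtype replicate 6.

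Acrv1 encodes SP-10, a protein of the acrosomal matrix whose transcript is known as a mark of round spermatids. It was the most variable of the 9 genes, with levels of 8.37, 9.04, 8.93, 9.20 and 10.41 in wildtype and 7.82, 9.33 and 10.28 in mutant testis. Wildtype replicate 7 and mutant replicate 8 exceeded every other array by at least 0.95, and mutant replicates 3 and 5 differed by 1.51. The genotype means were 9.19 ± 0.75 (SD, n = 5) and 9.14 ± 1.24 (SD, n = 3), and their difference of -0.050 (SE 0.54) had an interval of -1.26 to 1.16, or 0.418-fold to 2.24-fold. Differences anywhere within that interval remain compatible with these arrays.

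Izumo1, the sperm protein that binds the egg receptor Juno before fusion, had levels of 8.07, 8.47, 8.45, 8.52 and 9.71 in wildtype and 7.71, 8.44 and 9.61 in mutant. It showed the widest gap of the 9 genes between the pair and the rest, with 1.09 between mutant replicate 8 and the highest of the other 6 arrays. The genotype difference was -0.059 (SE 0.43, interval -1.03 to 0.91).

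**Figure D2:**
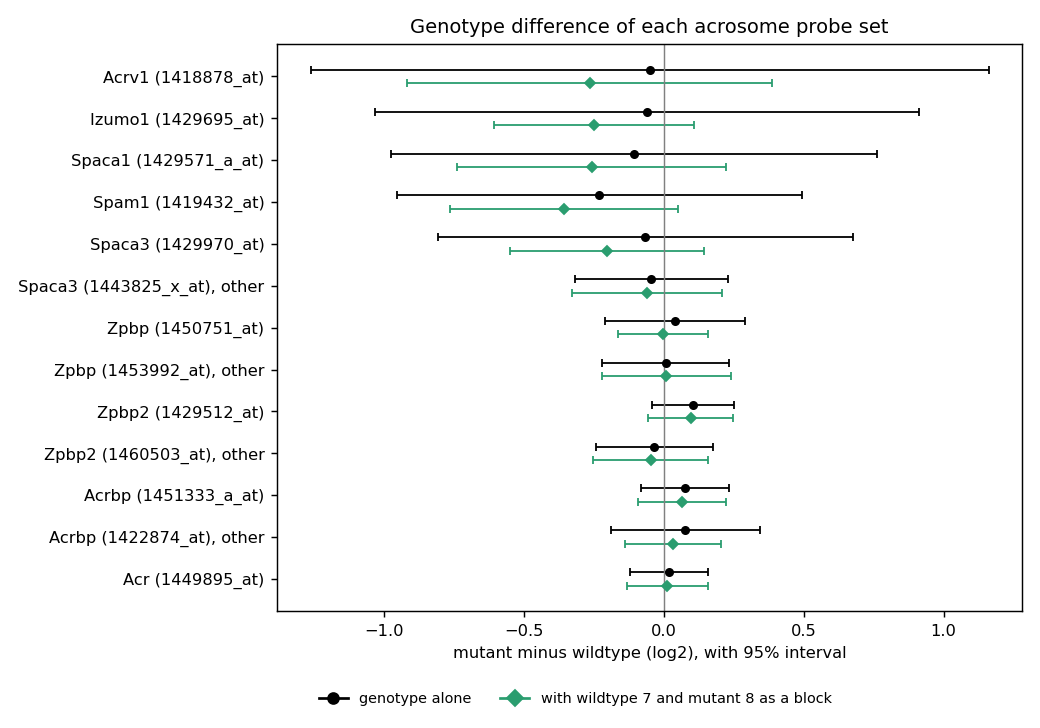
Difference between mutant and wildtype testis (log2) with its 95% interval for each of the 13 acrosome probe sets, from the fit with genotype alone (circles) and with wildtype replicate 7 and mutant replicate 8 as a block (diamonds). Every interval includes 0, and the intervals of Acrv1, Izumo1, Spaca1, Spam1 and Spaca3 are the widest and shrink with the block.

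The 5 wide genes shared 1 order of the arrays at both ends. In 5 of 5, mutant replicate 3 was lowest, wildtype replicate 1 next, and wildtype replicate 7 and mutant replicate 8 highest, an order seen in 1.53% of all probe sets, or in 3.3% without the condition on wildtype replicate 1. Among the 1573 probe sets that also ranged by more than 1, these shares were 24.0% and 38.3%, and the pair was highest in 60.0%, so the order was common among probe sets that vary this much. Mutant replicate 3 lay 0.36 to 0.77 below the lowest wildtype array and 0.70 to 1.51 below mutant replicate 5. With 2 of the extreme arrays in a group of 3, the mutant SDs were 0.77 to 1.24 and the wildtype SDs 0.39 to 0.75. Without the pair, the 5 genes still ranged by 0.82 to 1.51 over the other 6 arrays, and the 4 narrow ones by 0.14 to 0.20. Since genes of 1 array share their RNA, they are not separate observations of this order.

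With wildtype replicate 7 and mutant replicate 8 as a block, the differences of the 5 wide genes moved to between -0.36 and -0.20, each below 0, with standard errors of 0.16 to 0.29. Of the 9 genes, 6 were below 0, where 47.5% of all probe sets were. Again 0 of the 13 probe sets passed an adjusted p of 0.05 with limma, against 0.00222% of all probe sets, and 0 passed an unadjusted p of 0.05, against 5.86% (2.83% lower in mutant). Spam1 came closest, at -0.36 (SE 0.18), an unadjusted limma p of 0.0797 and an adjusted p of 0.875. Izumo1 differed by -0.25 (SE 0.16), Spaca1 by -0.26 (SE 0.22), Acrv1 by -0.26 (SE 0.29) and Spaca3 by -0.20 (SE 0.16). Over the 6 other arrays alone, the 2 mutant arrays differed from the 4 wildtype ones by -0.38 to -0.28 for these genes. Within the pair, 1 array against 1, they differed by -0.29 to 0.14, with Spaca3 higher in mutant. Of the 2 mutant arrays outside the pair, mutant replicate 3 lay below the mean of the 4 wildtype arrays by more than 0.67 in each gene, while mutant replicate 5 lay above it, by 0.44 for Acrv1, 0.26 for Spaca1, 0.12 for Spam1, 0.060 for Izumo1 and 0.016 for Spaca3. In the fit with genotype alone and the pair kept, leaving out mutant replicate 3 turned all 5 differences above 0, to between 0.19 and 0.61. No direction is therefore given for any of these genes.

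A list of further genes, most but not all of them for acrosomal proteins, was examined next. Of the 20 genes listed, 18 had a probe set, and 0 passed an adjusted p of 0.05 in either direction, with a median difference of -0.069. The widest ranging were Lyzl6, another lysozyme-like protein, Spaca7 and Eqtn, an acrosomal membrane protein. Lyzl6 measured 9.05 to 10.65 in wildtype, with a median of 9.45, and 8.38, 9.55 and 10.43 in mutant. Spaca7 differed by -0.072 and Eqtn by -0.28, each from mutant replicate 3 at the bottom, at 6.97 and 7.01, to wildtype replicate 7 at the top, at 9.20 and 9.12. Wildtype replicate 7 and mutant replicate 8 were highest in 12 of the 18 and mutant replicate 3 lowest in 12. Of all probe sets 8.6% and 12.2% had these orders. Among those that ranged by more than 1, as 8 of the 18 did, the shares were 60% and 41.6%. At an unadjusted limma p of 0.05, 1 of the 18 passed, against 3.47% of all probe sets. This was Ly6k, a listed gene whose protein is not acrosomal, with a difference of -0.16. With the block 3 did, Ly6k, Eqtn and Cd46, against 5.86%.

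Izumo1 acts with other sperm proteins in fusion, and 7 of 9 listed had a probe set. None of the 7 passed an adjusted p of 0.05 with limma, and 0 passed an unadjusted one, against 3.47% of all probe sets. Of these 7, 5 shared both orders, Izumo2, Izumo3, Llcfc1, Spaca6 and Dcst1, against 3.3% of all probe sets. Among probe sets that ranged by more than 1, as 4 of the 7 did, 38.3% had both. Spaca6 lay between 4.14 and 5.39, below the array medians, with 4.136 on mutant replicate 3 and 4.142 on wildtype replicate 2. Dcst1 lay between 5.80 and 6.71, near those medians. Izumo3 had the widest range, from 8.04 on mutant replicate 3 to 9.83 on wildtype replicate 7. Izumo2 and Izumo3 differed between the genotypes by 0.14 and -0.12, and Llcfc1 by -0.046. The median difference of the list was -0.046.

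Most genes that build the vesicle had narrow ranges. Of 19 genes for acrosome biogenesis, 18 had a probe set, with a median range of 0.29, below the 0.38 of all probe sets, and 0 passed an adjusted p of 0.05. Still, wildtype replicate 7 and mutant replicate 8 were highest in 7 of the 18, against 8.6% of all probe sets, and 3 of the 18 ranged by more than 1, against 3.49%. These 3 were Actl7a, an actin-like protein of the perinuclear theca, Spaca9 and Fam209, the partner of DPY19L2 in acrosome attachment, at 1.48, 1.47 and 1.32. In all 3, wildtype replicate 7 and mutant replicate 8 were highest, as in 60% of all probe sets that ranged by more than 1. Their genotype differences were -0.13, -0.13 and -0.19. The machinery of acrosome exocytosis, with 10 of 10 genes measured, had a median range of 0.31 and 0 genes past an adjusted p of 0.05. Its widest gene was Plcd4, a phospholipase C of the acrosome reaction, with a range of 0.67 and a difference of 0.064, followed by Cplx1 and Rab3a at 0.44 and 0.40. The unadjusted limma test passed 0 of these 10 and 0 of the 18 biogenesis genes, against 3.47% of all probe sets. With the block it passed 0 and 2 (Actl7a and Spaca9), against 5.86%.

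**Figure D3:**
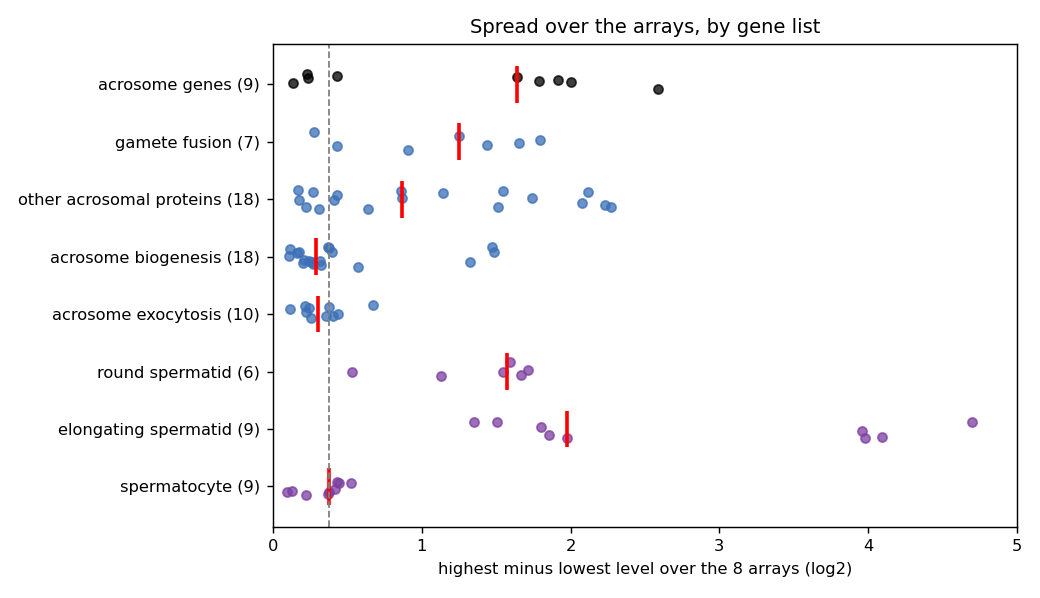
Range over the 8 arrays (highest minus lowest log2 level) of each gene in the acrosome set and in the related lists, with list medians in red, the number of genes in brackets and the median of all probe sets (0.38) as a dashed line. The acrosome genes fall into a narrow and a wide set, and the wide set and most round spermatid markers exceed 1, while biogenesis, exocytosis and spermatocyte genes lie mostly near the dashed line.

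Marker genes of the testis cell types were set beside the acrosome genes on each array. The 6 round spermatid markers had a median range of 1.57. In 5 of the 6, wildtype replicate 7 and mutant replicate 8 were highest and mutant replicate 3 lowest, as in the wide acrosome genes. This order was seen in 3.3% of all probe sets. Of those that ranged by more than 1, as 5 of the 6 markers did, 38.3% had it. The median difference of the 6 markers between genotypes was -0.12. Tssk2, a kinase of spermatids, measured 8.85 on mutant replicate 3 and 10.56 on wildtype replicate 7. Among the 9 elongating spermatid markers, all were highest on the same pair, with a median range of 1.98, but mutant replicate 3 was lowest in only 4. All 9 ranged by more than 1, and the pair was highest in 60% of all such probe sets. Their median genotype difference was -0.25, and 0 passed an unadjusted limma p of 0.05. With the block it was -0.42, and 8 of the 9 passed, all lower in mutant, against 5.86% of all probe sets. With the block 1 of the 6 round spermatid and 2 of the 9 spermatocyte markers passed. In these 3 lists 0 passed an adjusted p of 0.05. These genes share their arrays. The block was chosen with results of these data known, and all 9 elongating spermatid markers were highest on its arrays. The count of 8 is therefore no test of a genotype difference. Tnp2, Tnp1 and Prm1, for the proteins that replace histones, had the widest ranges, of 4.70, 4.09 and 3.98, and Prm1 was lowest on mutant replicate 5, at 8.14. The 9 spermatocyte markers had a median range of 0.37 and the pair highest in 1 gene, Pgk2. Transcription of Acr is known to begin in spermatocytes. Whether this bears on its narrow range was not tested.

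Other lists moved with the same arrays. In the fat list 4 of 5 measured genes were highest on wildtype replicate 7 and mutant replicate 8, against 8.6% of all probe sets. Of the 5, 4 ranged by more than 1, and the pair was highest in 60% of all such probe sets. Adipoq stood at 8.39 and 8.27 on these 2 arrays and at most 6.62 elsewhere. The mean level of the 5 fat genes ran from 6.05 to 7.87 over the wildtype and from 5.74 to 7.95 over the mutant arrays. Taken from each gene's mean over the 8 arrays, the fat list median was 1.58 and 1.46 on the pair. It was lowest on mutant replicate 3, at -0.97, and next on wildtype replicate 1, at -0.82, as in the wide acrosome genes. Of the 5 fat genes, 2 were lowest on mutant replicate 3. On mutant replicate 3, the Leydig list was 0.51 above the mean of the 8 arrays, the peritubular list 0.24, the Sertoli list 0.14 and the spermatogonia list 0.14, and the spermatocyte list 0.17 below it. The mean level of the 5 Leydig genes ran from 8.86 to 9.26 over the wildtype and from 8.91 to 9.46 over the mutant arrays, the last on mutant replicate 3. The macrophage and endothelium lists had the pair highest in 0 of 5 and 0 of 4 genes, and the epididymis list in 0 of 5, although Crisp1 stood at 5.82 on wildtype replicate 1 and 6.38 on mutant replicate 8 and at most 3.34 elsewhere. The difference between the 3' and 5' control probe sets of Gapdh was 0.31 and 0.33 on the pair and 0.041 to 0.22 on the other arrays. For mutant replicate 3 it was 0.051. For beta-actin it was 1.13 and 1.03 on the pair, 1.03 on wildtype replicate 4 and 0.75 to 0.90 on the others. The part of fat, Leydig or RNA quality in the acrosome levels was not tested.

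**Figure D4:**
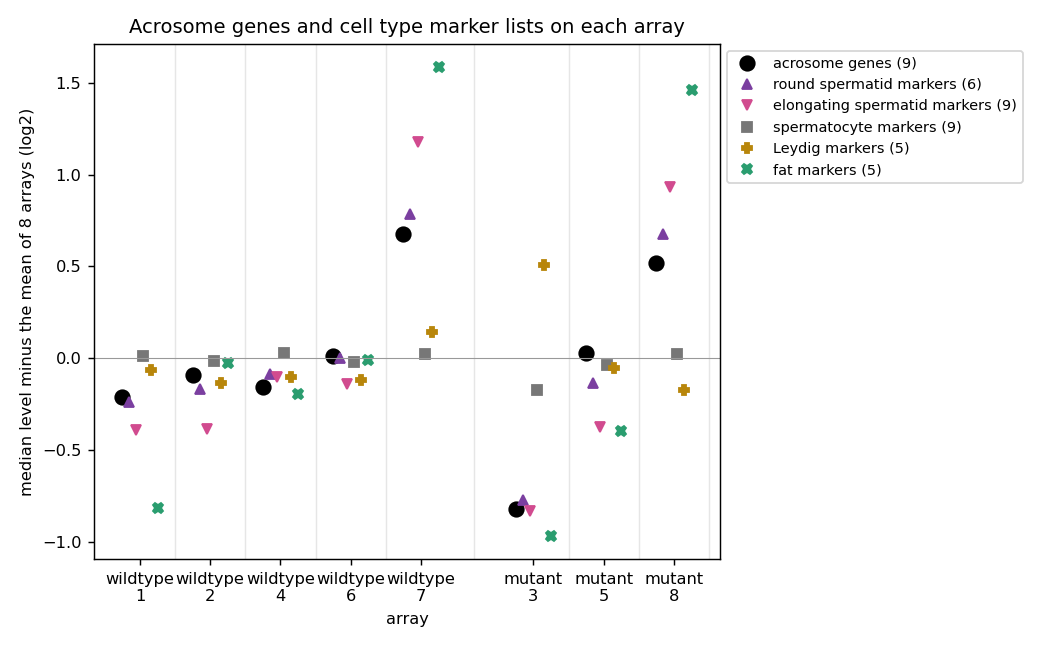
Median level of the 9 acrosome genes and of 5 marker lists on each array, as the log2 difference from each gene's mean over the 8 arrays, with the number of genes in brackets. The acrosome genes sit at 0.68 and 0.52 on wildtype replicate 7 and mutant replicate 8 and at -0.82 on mutant replicate 3. On these arrays the round spermatid markers sit at 0.78, 0.68 and -0.77, the elongating ones at 1.18, 0.93 and -0.83. The fat markers sit at 1.58, 1.46 and -0.97, while the spermatocyte markers stay between -0.17 and 0.029.

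Over all genes on the array, those whose pattern lay closest to the mean pattern of the 9 acrosome genes were Tssk4, Vash2, Mbd3l1, Rab3il1 and Mmel1. Closeness was the root mean square difference over the 8 arrays after each gene's own mean was subtracted, and it was 0.034 for Tssk4, a spermatid kinase, and 0.048 for Mmel1, a membrane peptidase. The median over all probe sets was 0.38. Among the acrosome genes, Spaca3 at 0.15 lay closest to this mean pattern and Acrv1 at 0.46 farthest, since its swings were larger. Acr at 0.36, Zpbp2 at 0.33 and Acrbp at 0.32 lay nearly as far as the median probe set, as they changed little over the arrays. Zpbp, the other narrow gene, lay at 0.22, nearer than Spaca1 at 0.23, Izumo1 at 0.30 and Acrv1 among the wide genes. The mean pattern thus averages wide and narrow genes, and closeness to it did not follow that split. Mbd3l1, a methyl-CpG-binding protein relative of haploid germ cells, went from 7.12 on mutant replicate 3 to 8.29 on wildtype replicate 7.

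The promoters of genes that moved together, and of 1 that did not, are shown for their cyclic AMP response elements, the sites bound by CREM, an activator of haploid germ cell genes. RefSeq promoters (GRCm38.p6, 250 bases before to 50 after the start) were found for 8 of the 9 genes, Acr being the other. Capitals mark TGACG, the half-site, on either strand, and the 250 bases before the start are printed, 5' to 3' along the gene.
Izumo1, chr7:45621561-45621810, forward strand: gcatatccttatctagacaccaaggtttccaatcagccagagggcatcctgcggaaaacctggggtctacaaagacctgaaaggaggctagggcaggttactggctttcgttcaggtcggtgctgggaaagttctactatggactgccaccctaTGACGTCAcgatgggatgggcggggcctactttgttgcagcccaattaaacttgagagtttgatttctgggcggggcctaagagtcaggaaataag
Spaca1, chr4:34050066-34050315, reverse strand: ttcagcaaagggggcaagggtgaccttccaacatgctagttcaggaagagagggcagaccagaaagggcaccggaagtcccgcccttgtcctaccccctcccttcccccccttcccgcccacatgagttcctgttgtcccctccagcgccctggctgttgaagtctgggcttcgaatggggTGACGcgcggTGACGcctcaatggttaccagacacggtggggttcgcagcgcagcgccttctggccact
Acrv1, chr9:36692970-36693219, forward strand: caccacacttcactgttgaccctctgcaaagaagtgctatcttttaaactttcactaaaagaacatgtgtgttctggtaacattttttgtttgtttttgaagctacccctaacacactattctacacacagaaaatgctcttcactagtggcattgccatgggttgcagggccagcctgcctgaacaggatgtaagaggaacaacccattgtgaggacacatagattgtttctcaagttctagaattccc
Acrbp, chr6:125049677-125049926, forward strand: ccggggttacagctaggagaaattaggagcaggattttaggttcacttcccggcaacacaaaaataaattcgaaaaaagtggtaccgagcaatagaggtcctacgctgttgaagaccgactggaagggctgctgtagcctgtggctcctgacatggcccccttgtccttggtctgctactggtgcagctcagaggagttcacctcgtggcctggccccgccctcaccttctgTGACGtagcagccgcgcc

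Izumo1 alone of the 8 held the full element TGACGTCA, at position -96 from its start, a sequence found in 1.79% of all 32851 promoter windows. The half-site TGACG, which also lies within the full element, was present in 5 of 8, those of Izumo1, Spaca1, Spaca3, Acrbp and Zpbp2, and in 20.8% of all windows. The counts out of 8 are of genes, whereas the shares are of single windows. Spaca1 and Spaca3 have 2 windows each, and both windows of each gene held the half-site. Spaca1 held it in 2 places, at -69 and -59, and Acrbp in 1, at -18. It did not follow the spread over the arrays: among the wide genes Izumo1, Spaca1 and Spaca3 had it and Acrv1 and Spam1 did not, and among the narrow genes Acrbp and Zpbp2 had it and Zpbp did not. Other letters searched on both strands were CAACNG, for MYB proteins, in 4 of 8 and 35.0% of all windows, GTTGCC, an X-box half-site, in 1 of 8 and 12.5%, TATAAA in 0 of 8 and 13.6%, and a core of the CTCF consensus, in 0 of 8 and 3.43%. A match is a run of letters and not a measured site.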

How the data were processed

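Testis RNA (5 ug per sample) was labelled and hybridised to Affymetrix Mouse430_2 arrays. The authors used Affymetrix software with quantile normalization and RMA background correction (versions not given in the sources used here) and deposited log2 levels, 1 for each probe set on each array. These log2 levels were used as deposited, with arrays assigned to samples by title. The group means, fold changes and p-values in that table, and both other tables, hold the authors' own comparison and were not used.

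All 45101 probe sets, 64 of them controls, entered the limma 3.58.1 model (lmFit, eBayes; R version 4.3.3). Tests were two-sided, and p-values were adjusted over the whole table by Benjamini-Hochberg. The fit was tested on simulated data. Further steps used Python 3.11.15, numpy 2.4.6, pandas 2.3.3 and matplotlib 3.10.9. The members, lists and the block of 2 arrays were chosen with earlier results of these data known. The main probe set of a gene is the one without an _x_at or _s_at ending, then the highest mean. Of each list the 3 genes of widest range are named, with others named after their values were seen. Genes of the lists were matched by symbol or by Entrez ID, using RefSeq genes of GRCm38.p6. Of the 38810 probe sets that carry such an ID, 33571 (86.5%) had a match. Tmf1, Spaca5, Tmprss12, Tmem95, Fimp, Nanos3, Insl3 and Plin1 were matched to no probe set.

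Alternatives were leaving out each array, leaving out the pair, the block, centring arrays on medians, repeated quantile normalisation, an offset of 64 on the linear scale, array weights, a one-way comparison, a robust prior with an intensity trend, probe sets above the median level only, and other probe sets of a gene.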

Additional observations from a re-analysis of the deposited data

Results flagged for a closer look

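Of the 13 acrosome probe sets, 2 had a wildtype array far from the other 4, where chance gives about 1 in 20. Both were on wildtype replicate 7. That array was already known to stand apart, so this count is no test against that rate. Spam1 measured 8.96 there and 8.17 on the nearest other wildtype array, a gap of 0.774 of the group's range. Izumo1 measured 9.71 against 8.52, a gap of 0.723 of the range. The critical value for 5 arrays is 0.710. The genes share the array and are not separate findings, and a group of 3 mutant arrays is too small to examine in this way.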

How the results depend on the processing

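No paired analysis was possible because the labels do not say which samples share a litter. With an adjusted p of 0.05 as threshold, 0 of 13 probe sets passed under all 17 alternatives with limma or the one-way comparison. At an unadjusted limma p of 0.05, from the model across all probe sets, the count moved from 0 to 1 with the offset of 64, where Zpbp2 had a limma p of 0.0468 and 3.66% of all probe sets passed. It was 0 in each other alternative, with 10 of the 13 probe sets tested above the median level. Acr and Acrbp kept a higher mean in mutant throughout. Zpbp reversed to -0.0019 with the pair as a block and to -0.0021 without the pair. Zpbp2 reversed to -0.034 when its other probe set was used. Causes were not tested.

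Leaving out 1 array, the differences ranged from -0.62 to 0.61 for Acrv1, -0.57 to 0.38 for Izumo1, -0.50 to 0.36 for Spaca1, -0.50 to 0.32 for Spaca3, -0.56 to 0.19 for Spam1, -0.065 to 0.12 for Zpbp, 0.065 to 0.16 for Zpbp2, 0.00097 to 0.042 for Acr and 0.047 to 0.10 for Acrbp. The lowest values of the first 5 came without mutant replicate 8 and the highest without mutant replicate 3. Without wildtype replicate 7, Acrv1, Spaca1, Spaca3 and Izumo1 also reversed, to 0.25, 0.12, 0.098 and 0.21, and without mutant replicate 5 Izumo1 did, to 0.015. Zpbp reversed without mutant replicate 8 (-0.065) or wildtype replicate 1 (-0.0052). The median over the 9 genes ranged from -0.50 to 0.19, and lay between -0.28 and -0.022 in the alternatives that leave out no single array. It was above 0 without mutant replicate 3, mutant replicate 5 or wildtype replicate 7.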
